A study of Mus musculus with 2 samples.

Results

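The genes described here encode the phagocyte NADPH oxidase and the proton channel that works beside it. They were the 7 features named Cybb, Cyba, Ncf1, Ncf4, Rac1, Rac2 and Hvcn1, chosen by name out of 35522 features listed in both expression tables, and all 7 were present in both. Neutrophils of mouse bone marrow, sorted as CD11b-positive cells with high Ly6G and low or no Ly6C, were kept for 3 days in culture with GM-CSF at 10 ng/ml, a cytokine that supports myeloid cells. The PBS-treated culture received PBS alone. The exosome-treated culture (labelled ELV-treated) received 20 μg/ml of vesicles released by cancer stem cells that were grown as spheres from CT26, a murine colon carcinoma line. GM-CSF was thus present in both cultures, and the study's methods name Balb/C mice as the source of immune cells. Each treatment has 1 library, so the error between replicates is unknown and no test was made. A gene is said below to have risen or fallen only when its RPKM (a read count scaled to gene length and to the total of mapped reads) was at least 0.25 in both libraries and differed at least 2-fold between them.

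The oxidase moves electrons from NADPH across a membrane onto oxygen, which makes superoxide, the first product of the respiratory burst that neutrophils use against microbes. Its catalytic core is a membrane pair of gp91phox (Cybb) and p22phox (Cyba). On activation cytosolic proteins, among them p47phox (Ncf1) and p40phox (Ncf4), and a Rac GTPase join this pair. The charge carried out with each electron is balanced by protons that leave through the channel HV1 (Hvcn1). Loss of a phox subunit causes chronic granulomatous disease. The values below are RNA levels and measure neither oxidase protein nor its activity. The paper reports that neutrophils treated with these exosomes could still generate reactive oxygen species.

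The libraries held an estimated 66000000 mapped reads in PBS and 79100000 mapped reads with exosomes, and 9698 genes had an RPKM of at least 0.25 in both. Of these, 31.5% were at least 2-fold higher with exosomes and 5.62% at least 2-fold lower, and the median log2 ratio of exosome over PBS was 0.53. That excess depended on the level of expression. Among the 1057 genes with a geometric mean of at least 50 RPKM, 10.8% were higher and 11.1% lower, and the median log2 ratio was 0.02. Of the 7 genes, 6 lie at that level, and Hvcn1 does not.

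The label of the cells was checked against marker genes. All 10 neutrophil markers were present, led by S100a8 and S100a9, and 9 of the 10 were at least 2-fold lower with exosomes. Their summed level was 82880 RPKM in PBS and 29772 RPKM with exosomes. The 11 markers of monocytes and macrophages, cells that also carry this oxidase, went the other way. Their summed level was 165 RPKM in PBS and 462 RPKM with exosomes, none was at 0, and 4 of the 6 kept rose. Csf1r, the receptor for the macrophage growth factor, had 58.1 and 152.6 RPKM. Adgre1, which encodes F4/80, had 20.9 and 151.5 RPKM, and the complement gene C1qc had 0.27 and 3.79 RPKM. All 11 had a higher value with exosomes. Summed levels of the other marker lists were lower with exosomes, at 104 and 64.0 RPKM for B cells, 57.7 and 7.69 RPKM for T and NK cells (of which Cd3d alone made 56.44 and 7.02 RPKM), and below 10 RPKM in both libraries for dendritic, eosinophil or mast, erythroid and epithelial cells. The part of these shifts in the values below was not tested. In bulk RNA, a change in the share of a cell type and a change of RNA per cell cannot be told apart. The paper reports higher viability and less apoptosis of neutrophils given these exosomes, and its sorting allowed less than full purity. Whether survival or purity had a part in the values here was not tested.

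Cybb and Ncf4 rose, none of the 7 genes fell, and the other 5 stayed within 2-fold. The count of 2 of 7 is close to the 31.5% of all genes that rose, and the count of 0 stands beside the 5.62% that fell. The median log2 ratio of the 7 genes, 0.49, was also close to the 0.53 of all genes. The reading depended on the centring. After the median of the 500 genes nearest in mean level was removed from each gene (level centring), the median of the 7 genes was 0.40 against -0.01 for all genes. Of the 7 genes 6 then lay above 0, while as many of all genes lie above that -0.01 as below it. The same 2 genes were then at least 2-fold higher, beside 12.6% of all genes. When the median of all genes was removed instead (median centring), the median of the 7 genes was -0.04. Then 3 of the 7 lay above 0 and 1 was at least 2-fold higher, beside 16.8% of all genes. The balance among the subunits differed as well. How often other genes of this level differ as much was not tested.

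The membrane pair changed unequally. Cybb, the gene of the catalytic subunit (chromosome X, 9435252 to 9487771, minus strand, GRCm38; 13 exons in the longest transcript), had 69.67 RPKM in PBS and 295.08 RPKM with exosomes. This is a ratio of 4.24 and a log2 ratio of 2.08, with a 95% counting interval of 2.06 to 2.10. Counting intervals here are exact Clopper-Pearson intervals of estimated reads, and they cover counting error only. Of all genes kept, 92.4% had a lower log2 ratio than Cybb, and it went from rank 735 to rank 129 among all features by RPKM. Cyba, the gene of its partner (chromosome 8, 122424776 to 122432930, minus strand), had 356.58 and 471.70 RPKM, a log2 ratio of 0.40 (counting interval 0.38 to 0.43). There were thus 5.12 units of Cyba RPKM for each unit of Cybb in PBS (interval 5.02 to 5.22) and 1.60 with exosomes (interval 1.58 to 1.62). This ratio within a library does not depend on the scaling between libraries.

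The membrane pair and Ncf1, whose proteins form 1 complex, had unlike ratios (4.24 for Cybb, 1.32 for Cyba and 0.824 for Ncf1). Whether promoter sequence bears on this was not tested. RefSeq promoters of 250 bases before and 50 bases after the start site (GRCm38.p6) were at hand for only these 3 of the 7 genes, and all 3 are printed. They lie at chrX:9469275-9469574 for Cybb, chr8:122432891-122433190 for Cyba and chr5:134229576-134229875 for Ncf1, all on the minus strand, and are shown in the direction of transcription. The Cybb window lies inside the gene span given above, not at its upper end at 9487771, so it belongs to a start site further in. The Cyba and Ncf1 windows cover the upper ends of their genes. Capitals mark matches on either strand to 3 motifs. These are the CCAAT box, the purine-rich core GAGGAA bound by ETS factors of myeloid cells, and GGGANTTTC, which is close to an NF-κB site. The motifs were picked after the sequences had been read.
Cybb: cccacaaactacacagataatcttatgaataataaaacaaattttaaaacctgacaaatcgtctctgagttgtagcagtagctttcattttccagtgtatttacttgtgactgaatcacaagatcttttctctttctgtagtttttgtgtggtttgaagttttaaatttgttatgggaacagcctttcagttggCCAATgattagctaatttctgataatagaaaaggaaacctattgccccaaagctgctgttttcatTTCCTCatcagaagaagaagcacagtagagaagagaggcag
Cyba: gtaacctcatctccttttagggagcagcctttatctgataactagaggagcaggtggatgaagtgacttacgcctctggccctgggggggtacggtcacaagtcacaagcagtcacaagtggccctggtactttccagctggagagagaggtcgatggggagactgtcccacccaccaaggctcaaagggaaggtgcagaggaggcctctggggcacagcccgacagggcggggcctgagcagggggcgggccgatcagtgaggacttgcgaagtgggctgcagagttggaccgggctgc
Ncf1: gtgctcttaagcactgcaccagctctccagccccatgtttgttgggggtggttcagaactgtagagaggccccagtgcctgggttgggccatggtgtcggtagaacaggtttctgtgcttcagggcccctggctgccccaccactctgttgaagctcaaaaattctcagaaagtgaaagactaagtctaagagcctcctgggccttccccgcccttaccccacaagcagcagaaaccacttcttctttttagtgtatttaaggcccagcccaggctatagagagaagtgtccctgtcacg
The Cybb promoter held CCAAT once, with its first letter 56 bases before the start site. It held GAGGAA once as TTCCTC on the strand shown, from position 260 to 265 of the 300 bases. That match begins 9 bases after the start site and so lies in transcribed sequence. These matches do not overlap. The Cyba and Ncf1 promoters held none of the 3 motifs in this window. Of 32851 RefSeq promoters of this length, 37.4% held CCAAT, 28.3% held GAGGAA and 1.11% held GGGANTTTC, so the matches in Cybb are common ones. A match is a run of letters and does not show that a factor binds there.

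**Figure D1:**
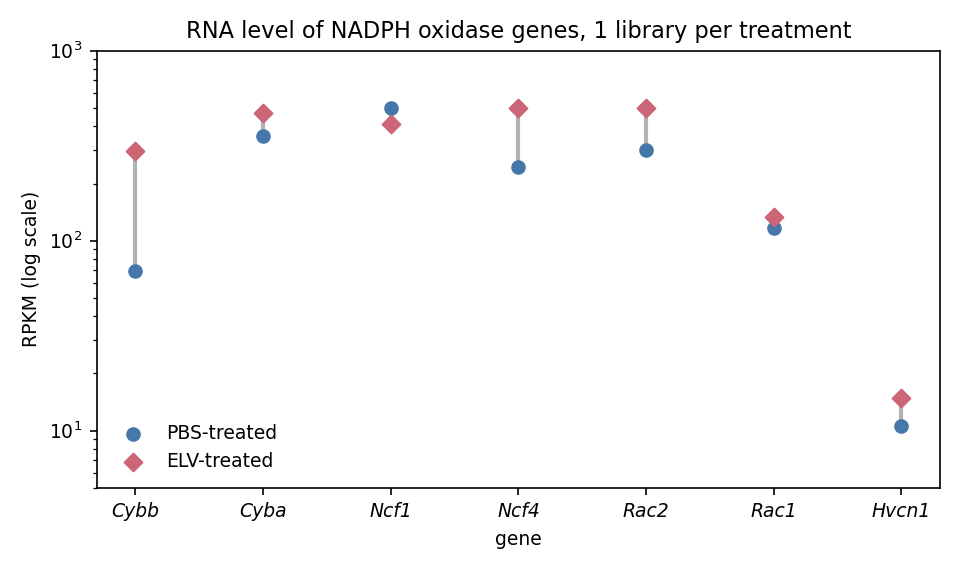
RNA level (RPKM, log axis) of the 7 genes in the PBS-treated library (circles) and the exosome-treated (ELV-treated) library (diamonds), 1 library each, joined by a grey line. Cybb shows the widest gap, from 69.67 to 295.08 RPKM, Ncf4 rises from 243.37 to 501.93 RPKM, and Ncf1 is lower with exosomes.

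The genes of the cytosolic subunits p40phox and p47phox differed in their change. Ncf4 encodes p40phox, which binds a phosphoinositide of the phagosome membrane and lies at chromosome 15, 78244801 to 78262580, plus strand. It had 243.37 RPKM in PBS and 501.93 RPKM with exosomes, a ratio of 2.06 and a log2 ratio of 1.04 (counting interval 1.02 to 1.07). It thus passed the 2-fold limit by a small margin. Ncf1 encodes p47phox, the organiser that is phosphorylated on activation (chromosome 5, 134220053 to 134229625, minus strand). It had 498.85 RPKM in PBS, the highest of the 7 genes, and 410.94 RPKM with exosomes, a log2 ratio of -0.28 (counting interval -0.29 to -0.27). It was the only one of the 7 with a lower value in the exosome library under the deposited scaling.

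**Figure D2:**
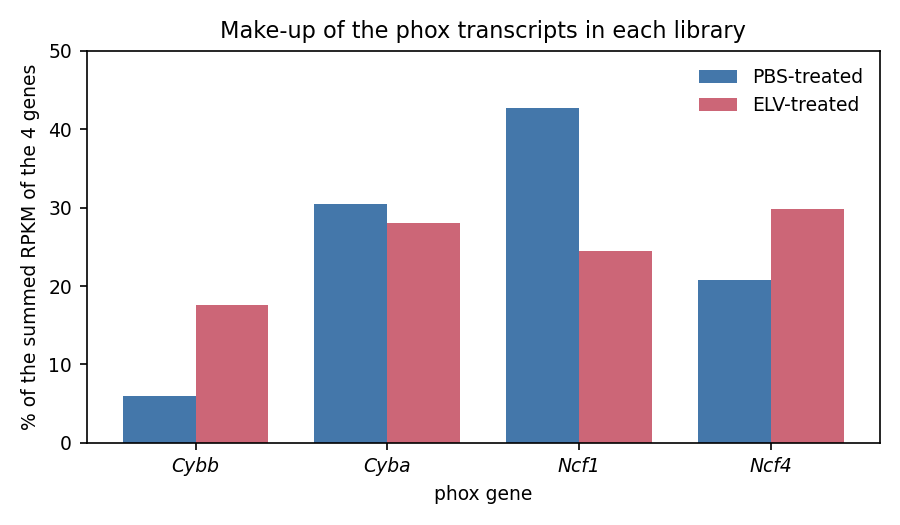
Share of each of 4 phox genes in their summed RPKM (percent, vertical axis) in the PBS-treated and exosome-treated (ELV-treated) libraries, 1 library per bar. Cybb goes from 5.96% to 17.6% and Ncf4 from 20.8% to 29.9%, while Ncf1 goes from 42.7% to 24.5% and Cyba from 30.5% to 28.1%.

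Ratios between these genes show the same within each library. Ncf1 stood at 2.05 times Ncf4 in PBS and at 0.819 times Ncf4 with exosomes. Ncf1 stood at 7.16 times Cybb in PBS and at 1.39 times Cybb with exosomes. Across Cybb, Cyba, Ncf1 and Ncf4 the highest level was 7.16 times the lowest in PBS (Ncf1 over Cybb) and 1.70 times the lowest with exosomes (Ncf4 over Cybb), so the levels lay closer together there. Their summed RPKM was 1168 in PBS and 1680 with exosomes, a ratio of 1.44.

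The Rac GTPases were both within 2-fold. Rac2, the form typical of blood cells (chromosome 15, 78559167 to 78572783, minus strand), had 300.47 RPKM in PBS and 497.14 RPKM with exosomes, a log2 ratio of 0.73 (counting interval 0.71 to 0.74). Rac1, which most cells express (chromosome 5, 143503634 to 143528036, minus strand), had 117.35 and 133.78 RPKM, a log2 ratio of 0.19 (counting interval 0.17 to 0.21). Rac2 exceeded Rac1 2.56-fold in PBS and 3.72-fold with exosomes. The third Rac gene, Rac3, was below the filter at 0.11 and 0.14 RPKM. Rac genes are similar in sequence, and how reads shared between them were assigned is not stated.

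Hvcn1, the gene of the proton channel (chromosome 5, 122206804 to 122242297, plus strand), was the lowest of the 7 genes in both libraries. It had 10.55 RPKM in PBS and 14.80 RPKM with exosomes, a log2 ratio of 0.49 (counting interval 0.41 to 0.57). Genes of its level were shifted upward, and the 500 nearest in mean level had a median log2 ratio of 0.37. Relative to them the value for Hvcn1 was 0.11. For each unit of Hvcn1 there were 6.60 units of Cybb RPKM in PBS and 19.9 with exosomes.

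Parts of 3 of the 7 genes overlap exons of a gene on the opposite strand, and whether strand was used in counting is not stated. Rac1 shares 2309 exonic bases with Daglb, Hvcn1 shares 1574 with Tctn1 and Ncf1 shares 408 with Gtf2ird2. The partners were low, at 7.01 and 7.99 RPKM for Daglb, 1.60 and 1.74 RPKM for Tctn1, and 15.22 and 6.24 RPKM for Gtf2ird2 in PBS and exosome libraries respectively.

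The order of the levels changed with treatment. In PBS it ran from Ncf1 through Cyba, Rac2, Ncf4, Rac1 and Cybb to Hvcn1, and each neighbour differed from the next beyond counting error. With exosomes it ran from Ncf4 through Rac2, Cyba, Ncf1, Cybb and Rac1 to Hvcn1. The top pair did not differ beyond counting error there, since Ncf4 over Rac2 was 1.01 with an interval of 0.9997 to 1.02. Cybb exchanged places with Rac1, from 0.594 times its level in PBS to 2.21 times with exosomes.

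**Figure D3:**
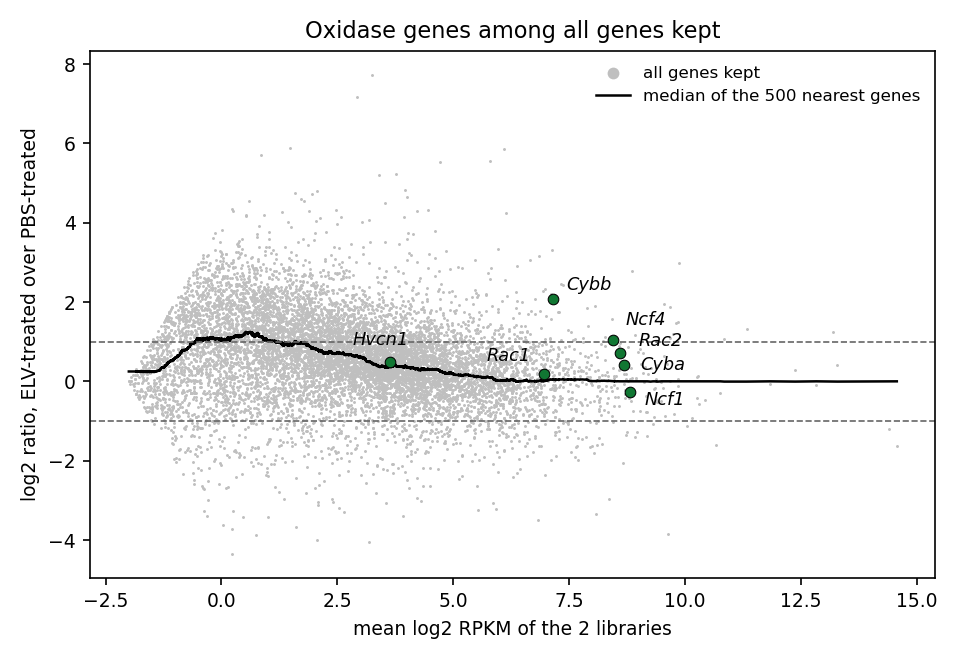
Log2 ratio of exosome-treated (ELV-treated) over PBS-treated RPKM against mean log2 RPKM for the 9698 genes kept (grey), with the 7 genes in green. The black line is the median of the 500 genes nearest in level and the dashed lines mark 2-fold, and Cybb (2.08) and Ncf4 (1.04) lie above the upper line and the other 5 genes between the lines.

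The deposited values are not centred on each other, and the call for some genes rested on that. Cybb stayed above 2-fold under every scaling tried, with log2 ratios from 1.54 to 2.13. Ncf4 was below the limit after median centring (0.52), after the trimmed mean log ratio was taken off (0.50) and when S100a8 and S100a9 were left out of the library sums (0.87). Set against the 500 genes nearest in level it was 1.04. The signs of Cyba, Rac1 and Hvcn1 turned negative under median centring and trimmed mean removal, at -0.12, -0.34 and -0.04 in the first case, so no direction is given for these 3 genes.

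**Figure D4:**
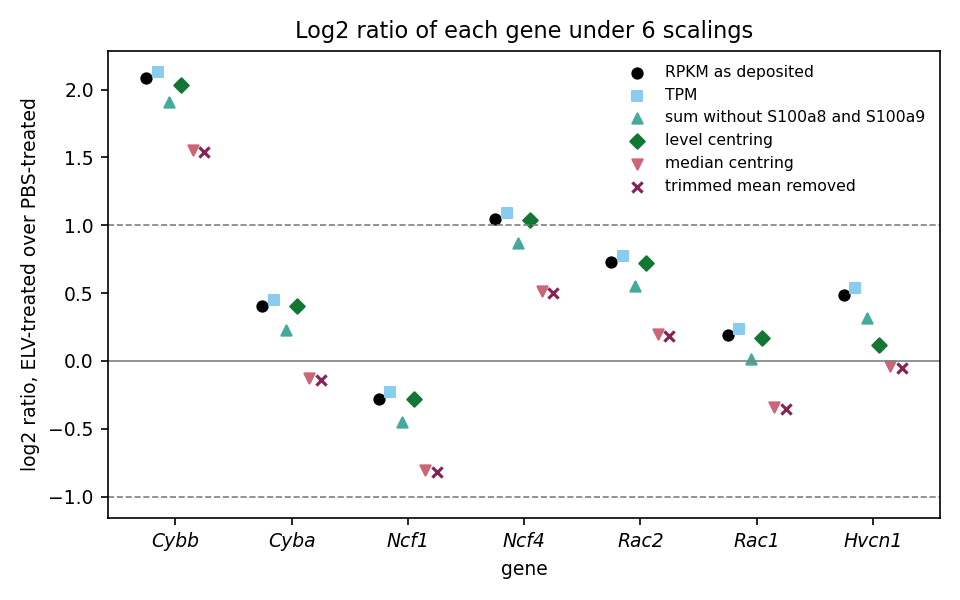
Log2 ratio of exosome-treated (ELV-treated) over PBS-treated values for the 7 genes (horizontal axis) under 6 scalings of the 2 libraries, 1 point per scaling. The dashed lines mark 2-fold, and all points of Cybb lie between 1.54 and 2.13, while those of Ncf4 lie between 0.50 and 1.09 on both sides of the line.

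Genes of the other NADPH oxidases were nearly silent. Nox1, Nox3, Nox4, Duox1 and Duox2, which encode catalytic subunits of other tissues, reached at most 0.00896 RPKM in either library. Of 11 other subunits and homologues 2 were kept. Noxo1, the organiser that takes the place of p47phox with NOX1, rose from 0.40 to 1.57 RPKM. It stayed past 2-fold after median centring (1.45) but was just under the limit after level centring (0.92). Cybc1, listed under the older symbol BC017643 and needed for the membrane pair to mature, had 30.50 and 33.35 RPKM, a log2 ratio of 0.13.

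Lists of genes that act with the oxidase were described by the same rule, beside the 31.5% of all genes that rose and the 5.62% that fell. After level centring these shares were 12.6% higher and 13.7% lower, and after median centring, which removes 0.53 from every gene, 16.8% higher and 13.2% lower. Among regulators of Rac, 2 of 20 genes kept rose and 2 fell, and the median log2 ratio was 0.08. The guanine nucleotide exchange gene Vav2 rose from 1.2 to 3.01 RPKM and Elmo2, a partner of DOCK exchange factors, from 2.12 to 7.32 RPKM. Arhgap15 and Bcr, which encode proteins that switch Rac off, fell from 10.56 to 3.09 RPKM and from 3.96 to 1.75 RPKM. Other genes of each kind lay within 2-fold, some higher and some lower with exosomes. After level centring 0 of the 20 were higher and 3 were lower, so neither Vav2 (0.27) nor Elmo2 (0.96) kept its call, and the list median was -0.15. After median centring 1 was higher and 4 were lower, with a list median of -0.44. The most abundant, Arhgdib, which holds Rac in the cytosol, had 656.07 and 682.65 RPKM, and its relative Arhgdia had 81.37 and 114.46 RPKM.

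Kinases that act, or are proposed to act, on the cytosolic subunits were mostly within 2-fold. Of 19 kept, 1 rose and 0 fell, with a median log2 ratio of 0.18. Prkcb, a protein kinase C that phosphorylates p47phox, rose from 33.01 to 117.20 RPKM and stayed past 2-fold under both centrings, whereas the list median turned to -0.35 after median centring and -0.04 after level centring. After median centring 1 of the 19 was at least 2-fold lower, Prkca at -1.16 (0.42 and 0.27 RPKM). After level centring 0 were lower. Prkcd, the most abundant protein kinase C of the list, had 291.88 and 268.27 RPKM, and the Src-family kinase Fgr had 210.11 and 352.48 RPKM. All 15 phosphoinositide and phospholipid enzymes were kept and all stayed within 2-fold, with a median log2 ratio of 0.20 that turned to -0.33 and -0.17 under the same centrings. Under each centring 0 of the 15 were higher and 1, Pla2g4a, was at least 2-fold lower, at -1.06 and -1.47. The most abundant were Inpp5d, a phosphatase that acts on the lipids made by PI3-kinase (81.53 and 74.61 RPKM), and Pik3cd, a catalytic subunit of that kinase (56.59 and 80.28 RPKM).

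Of the enzymes that remove superoxide and peroxide, 6 of 16 kept (37.5%) rose, with none that fell and a median log2 ratio of 0.89. Sod2, the mitochondrial superoxide dismutase, rose from 30.38 to 228.13 RPKM, Prdx1 from 44.86 to 178.12 RPKM and Cat (catalase) from 8.14 to 27.85 RPKM. Gpx3 rose from 0.49 to 3.77 RPKM. Prdx5 and Txn1, the most abundant of the list, stayed within 2-fold at 455.54 and 614.24 RPKM and at 395.21 and 349.62 RPKM. After level centring 5 of the 16 were higher and 0 lower, with a list median of 0.65, and after median centring 4 were higher and 0 lower, with a list median of 0.37. Sod2, Prdx1, Cat and Gpx3 were past 2-fold in both.

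For NADPH supply, 2 of 9 genes kept rose and 0 fell, with a median log2 ratio of 0.82. Nadk, which makes NADP from NAD, rose from 200.43 to 591.01 RPKM and Rpe from 4.13 to 15.13 RPKM, and both stayed past 2-fold under either centring. G6pdx, the entry enzyme of the pentose phosphate pathway, had 38.52 and 76.95 RPKM, a ratio of 1.998 that lay just under the limit (it was named after its values had been seen). Taldo1 and Pgd, the most abundant, had 882.20 and 476.16 RPKM and 483.21 and 364.50 RPKM. Taldo1 was at -1.42 after median centring, the 1 gene of the 9 then at least 2-fold lower, and at -0.89 after level centring. The list median was 0.29 after median and 0.48 after level centring, with 0 genes lower in the second case. Among genes of charge and pH compensation, 3 of 11 rose and 1 fell, with a median log2 ratio of 0.66. Car13 rose from 0.26 to 1.79 RPKM, the chloride/proton exchanger Clcn3 from 1.76 to 4.45 RPKM and the potassium channel Kcnj2 from 38.82 to 88.74 RPKM. Trpm2, a calcium-permeable channel that opens under oxidative stress, fell from 137.92 to 62.98 RPKM. Car13 and Trpm2 kept their calls under both centrings. Clcn3 lost its call under median (0.81) and level centring (0.39) and Kcnj2 under median centring (0.67), and the list median was 0.14 after median and -0.13 after level centring. Clic1, an intracellular chloride channel gene, had 206.73 and 194.64 RPKM.

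Of 16 transcription factors with a known part in oxidase gene expression, 1 rose, 0 fell, and the median log2 ratio was 0.11. Nfkb1 rose from 23.69 to 67.46 RPKM. Its log2 ratio was 0.98 after median centring, just under the limit, and 1.35 after level centring. The list median turned to -0.42 and -0.27, with 0 genes higher and 2 lower in the first case and 1 of each in the second. Cebpe had 10.86 and 5.44 RPKM, a ratio of 0.501 that lay just above the limit for a fall. Its log2 ratio was -1.52 after median and -1.63 after level centring. Cebpb and Cebpd, the most abundant, had 227.42 and 418.72 RPKM and 124.47 and 103.31 RPKM.

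**Figure D5:**
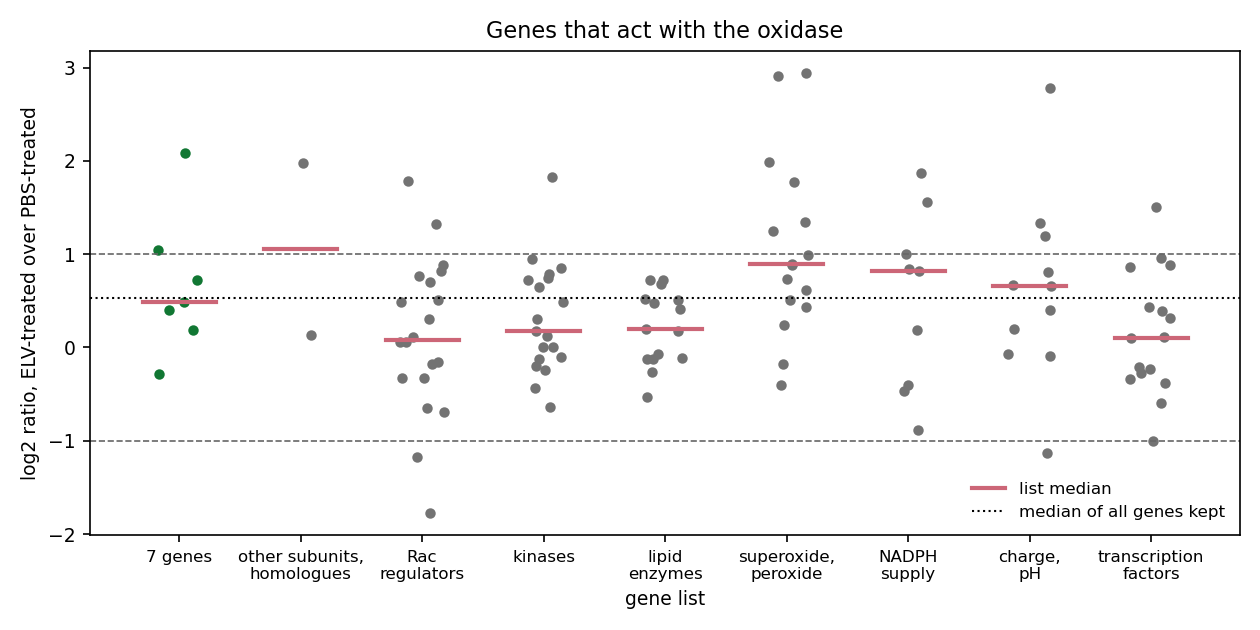
Log2 ratio of exosome-treated (ELV-treated) over PBS-treated RPKM for each kept gene (points) of the 7 genes and of 8 lists, with the median of each list (red bar), the median of all genes kept (dotted line, 0.53) and 2-fold (dashed lines). The superoxide and peroxide list has a median of 0.89 and the Rac regulators 0.08, and the other subunits and homologues hold only 2 genes.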

How the data were processed

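RNA of 1 PBS-treated and 1 exosome-treated culture of sorted mouse bone marrow neutrophils was sequenced from TruSeq mRNA libraries. Reads were quality-trimmed and mapped with CLC Genomics Workbench by the authors, whose deposited tables give 1 RPKM value for each feature. The submitters' processing notes name build mm10. The annotation, the use of strand, the handling of shared reads and the pooling of animals are not given in the sources used here.

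A gene was kept where both libraries reached an RPKM of 0.25, and ratios of at least 2 or at most 0.5 were counted, with no pseudocount. No test was made, since each treatment has 1 library. Mapped reads were estimated from values below 0.01 RPKM, many of which stand for 1 read, with the longest GENCODE M21 transcript of each symbol as length (225 of 918 such features agreed within 1% in PBS, and 270 of 1064 with exosomes). Estimated reads served only for 95% Clopper-Pearson intervals. Positions are from GENCODE M21 (GRCm38, the assembly called mm10) and promoters from RefSeq.

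All 7 genes were named, and of each list the genes past 2-fold (at most 4 in each direction) and the 2 most abundant. G6pdx, Cebpe, Pla2g4a and Prkca were named besides, after their values had been seen. Nearest genes were the 2 with the smallest distance in log2 RPKM over both libraries. The 7 genes, the lists and the rules were chosen with earlier results of these data known. One gene each of the Rac regulators and the transcription factors was not analysed here. Some other genes are not reported here and were left out of the lists. Scripts ran in Python 3.11.15 with scipy 1.17.1 and were tested on simulated reads.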

Additional observations from a re-analysis of the deposited data

How the results depend on the processing

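The number of the 7 genes that rose was 2 as deposited. It was 1 (Cybb) under median centring, trimmed mean removal, library sums without S100a8 and S100a9, and a ratio of at least 4, and it was 2 under TPM, level centring (the median of the 500 genes nearest in level removed) and the other filters and pseudocounts. No setting gave a gene of the 7 that fell. Over all genes, 3056 rose and 545 fell as deposited. Median centring gave 1634 and 1282, trimmed mean removal 1594 and 1322, level centring 1221 and 1331, and a ratio of at least 4 gave 826 and 111. An RPKM of at least 1 in both left 1958 that rose, and a pseudocount of 1 left 1976. The log2 ratio changed sign for Cyba (-0.12 and -0.14), Rac1 (-0.34 and -0.35) and Hvcn1 (-0.038 and -0.053) when the median or the trimmed mean, in that order, was removed, since these settings take about 0.53 from every gene. Median instead of longest transcript lengths widened the counting intervals, which spanned 0.03 to 0.16 on the log2 scale, to 0.04 to 0.27. No paired analysis was possible because each treatment has 1 library, and no library could be left out. Depth was not the limit for these genes, whereas variation between cultures could not be measured.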

Other observations

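Ncf4 and Rac2 lie 297 kb apart on chromosome 15 (GRCm38), and their levels with exosomes, 501.93 and 497.14 RPKM, were nearly equal. Between them RefSeq places 10 protein-coding genes, of which 9 were in the tables and 4 were kept, and 2 of these 4 rose, beside 31.5% of all genes. Both were genes of the shared signalling chain of the receptors for GM-CSF, IL-3 and IL-5 and of its paralog. Csf2rb2 rose from 1.42 to 22.17 RPKM, a log2 ratio of 3.96, and Csf2rb from 60.91 to 129.08 RPKM, a log2 ratio of 1.08. After median centring Csf2rb2 was at 3.44 and Csf2rb, at 0.56, was below 2-fold, while after level centring it was at 1.08. Tst had 3.24 and 3.46 RPKM and Mpst 3.49 and 5.19 RPKM. Csf2rb and Csf2rb2 are close paralogs, and how reads that match both were assigned is not stated. The interval was looked at after the values of Ncf4 and Rac2 had been seen, and no test was made.

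Genes with the levels most like those of the 7 genes were read from the smallest distance in log2 RPKM over the 2 libraries, a description that rests on 2 values per gene. For Cybb they were Ifitm3, an interferon-induced membrane protein gene (64.13 and 296.66 RPKM), and Lamp1, of the lysosome membrane (83.99 and 282.03 RPKM). For both Ncf4 and Rac2 they were Rap1b, a small GTPase gene (281.63 and 518.78 RPKM), and Ptpn6, which encodes the phosphatase SHP-1 (278.66 and 546.40 RPKM). For Cyba they were Mcl1 and Ddx5, for Ncf1 1810033B17Rik and Adipor1, for Rac1 Wdr1 and Tln1, and for Hvcn1 Tcf3 and Cul4a.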
